A study of Mus musculus with 5 samples.

Results

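10 genes that mark astrocytes or carry their glutamate, potassium and bicarbonate traffic were followed in RNA from brain microvascular fragments: *Gfap*, *Aldh1l1*, *Slc1a2*, *Slc1a3*, *Kcnj10*, *Glul*, *Slc4a4*, *S100b*, *Aldoc* and *Sox9*. The genes were taken by symbol. Each symbol matched 1 Ensembl identifier in the NCBIM37 annotation, so that 10 of 34615 symbols in the files were used. All 10 had a mean of at least 1 FPKM (a fragment count scaled by exon length and by library size) over the 5 mice and were among the 16286 symbols that were tested. The libraries came from 3 wild-type (WT) mice and 2 littermates heterozygous for the Ins2-AKITA mutation, all males on a C57BL6 background (C57Bl/6-J in the study's methods) aged 26 to 38 weeks, with 1 library per mouse. In Ins2-AKITA mice a mutated insulin 2 protein kills pancreatic beta cells, and the mice live with high blood glucose from a young age. The mutation is present in every cell of the body, and no astrocyte-specific change was made. The fragments were pulled from collagenase-treated brain with beads carrying an antibody to PECAM1, an endothelial surface protein. Such fragments can carry pericytes and torn-off astrocyte end-feet along with endothelium, and they are not purified astrocytes. The question was whether any of the 10 genes differed between the genotypes.

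Astrocytes wrap brain capillaries with flattened processes called end-feet. They clear glutamate from synapses with the sodium-coupled transporters encoded by *Slc1a2* (GLT-1) and *Slc1a3* (GLAST), convert it to glutamine with the glutamine synthetase encoded by *Glul*, and take up potassium through the inward rectifier Kir4.1 encoded by *Kcnj10*. Injury and disease can make astrocytes reactive, a state classically recognized by more of the intermediate filament protein GFAP.

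The data collected were FPKM values per gene and mouse. Judged from the steps between low FPKM values, about 1168000, 1322000 and 2846000 fragments lay behind WT replicates 1, 2 and 3, and about 1127000 and 1289000 behind Ins2-AKITA replicates 1 and 2. For *S100b*, which has 1 annotated transcript, this corresponds to 127, 145 and 488 fragments (WT) and 168 and 252 (Ins2-AKITA). *Sox9*, the lowest of the 10 genes, rested on an estimated 83, 166 and 275 fragments among WT and 88 and 202 among Ins2-AKITA mice if reads fell on all of its annotated exons. The other genes rested on more fragments than *S100b* in every mouse. WT replicate 3 thus had the most fragments behind its values, and these carry the least counting error.

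Beside the 10 genes, 20 further astrocyte-enriched genes were read, among them *Aqp4*, the water channel of the end-feet, and *Gja1*, the gap junction protein connexin 43. All 20 passed the filter of 1 FPKM. So did all 12 endothelial, 10 pericyte, 12 neuron, 12 oligodendrocyte lineage and 10 microglia markers, so that passing it does not tell the cell of origin. None of the 20 was at 0. The preparations also held RNA of other cells. The 12 endothelial markers summed to between 392 and 819 FPKM per mouse and the 10 pericyte markers to between 194 and 277. The 12 neuron markers summed to between 1726 and 2285, the 12 oligodendrocyte lineage markers to between 2110 and 2793 and the 10 microglia markers to between 180 and 258 FPKM. In such bulk samples, fewer cells of a type and less RNA per cell cannot be told apart.

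Promoter sequences from RefSeq (build GRCm38.p6, 250 bases before to 50 bases after the annotated start, read 5′ to 3′ on the strand of the gene) were matched for 9 of the 10 genes, with 11 promoters in all. *Sox9* was not matched. Of these, 3 are shown: *Gfap* as the classical marker, *Slc1a3* as a glutamate transporter gene that carries the same kind of motif match, and *Aldh1l1* because its level differed most between the genotypes. Capitals mark matches, on either strand, to the STAT motif TTCNNNGAA, the SOX motifs ACAAAG and ACAATG, the NFI motif TTGGCA or the TATA motif TATAAA. They lie at chr11:102897151-102897450 (minus strand), chr15:8710758-8711057 (minus strand) and chr6:90550543-90550842 (plus strand).
Gfap promoter: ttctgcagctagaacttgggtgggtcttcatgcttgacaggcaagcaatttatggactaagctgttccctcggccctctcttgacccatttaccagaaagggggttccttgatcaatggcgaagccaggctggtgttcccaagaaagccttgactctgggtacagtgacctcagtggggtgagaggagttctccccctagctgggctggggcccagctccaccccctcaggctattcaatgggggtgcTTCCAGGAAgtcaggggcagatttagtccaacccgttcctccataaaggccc
Slc1a3 promoter: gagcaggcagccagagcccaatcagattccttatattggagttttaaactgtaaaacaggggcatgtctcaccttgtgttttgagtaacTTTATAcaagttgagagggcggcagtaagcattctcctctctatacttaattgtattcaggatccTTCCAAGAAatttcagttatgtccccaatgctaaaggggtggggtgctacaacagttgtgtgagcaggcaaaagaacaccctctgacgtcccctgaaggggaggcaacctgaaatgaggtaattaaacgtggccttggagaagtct
Aldh1l1 promoter: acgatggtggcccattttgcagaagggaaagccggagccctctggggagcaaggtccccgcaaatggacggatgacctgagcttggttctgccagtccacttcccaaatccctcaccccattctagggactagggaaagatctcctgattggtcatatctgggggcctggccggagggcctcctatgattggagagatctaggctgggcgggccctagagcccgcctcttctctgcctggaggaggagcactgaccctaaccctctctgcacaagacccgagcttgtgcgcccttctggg

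With the annotated start counted as position 0, the *Gfap* promoter matched the STAT motif as TTCCAGGAA from -2 to 6, across the start itself. The *Slc1a3* promoter matched it as TTCCAAGAA from -96 to -88 and matched the TATA motif from -161 to -156. No letters of the *Aldh1l1* promoter matched any of the 5 motifs. The STAT motif was found in 3 of the 11 promoters of the astrocyte genes, those of *Gfap*, *Slc1a3* and one of *Aldoc*, and in 8.3% of the 32851 promoters of the RefSeq table. The NFI motif was in 2 of the 11, for *Aldoc* and *S100b* (14.1% of all promoters), and the SOX motif ACAAAG was in 1, for *Kcnj10* (18.7%). ACAATG was in none of the 11 (12.6% of all promoters) and TATAAA in 1 (13.6%). A match describes letters and does not show binding.

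In FPKM, which can be compared between genes because it is per length, the 10 genes spanned a wide range in WT mice. *Slc1a2* was the highest, at 1323 ± 270 FPKM (mean ± SD, n = 3), rank 75 of the 16286 symbols. *Glul* at 867 ± 20.2 and *Aldoc* at 646 ± 74.2 FPKM came next (ranks 93 and 105). The 3 WT values of each of these genes lay apart from those of the next in order, down to *Slc1a3* at 211 ± 30.5 FPKM. Below them the ranges touched: *Slc1a3* overlapped *Slc4a4* (171 ± 20.6 FPKM), which overlapped *Gfap* (133 ± 23.0), which overlapped *S100b* (103 ± 28.5), which overlapped *Kcnj10* (73.2 ± 34.6 FPKM). *Aldh1l1* was at 35.98 ± 6.73 FPKM, below every WT value of *Kcnj10*, and overlapped *Sox9* at 25.0 ± 6.96 FPKM (rank 3957). The common astrocyte markers *Gfap*, *S100b* and *Aldh1l1* thus had lower WT levels than *Slc1a2*, *Glul* and *Slc1a3*, in every WT mouse.

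**Figure D1:**
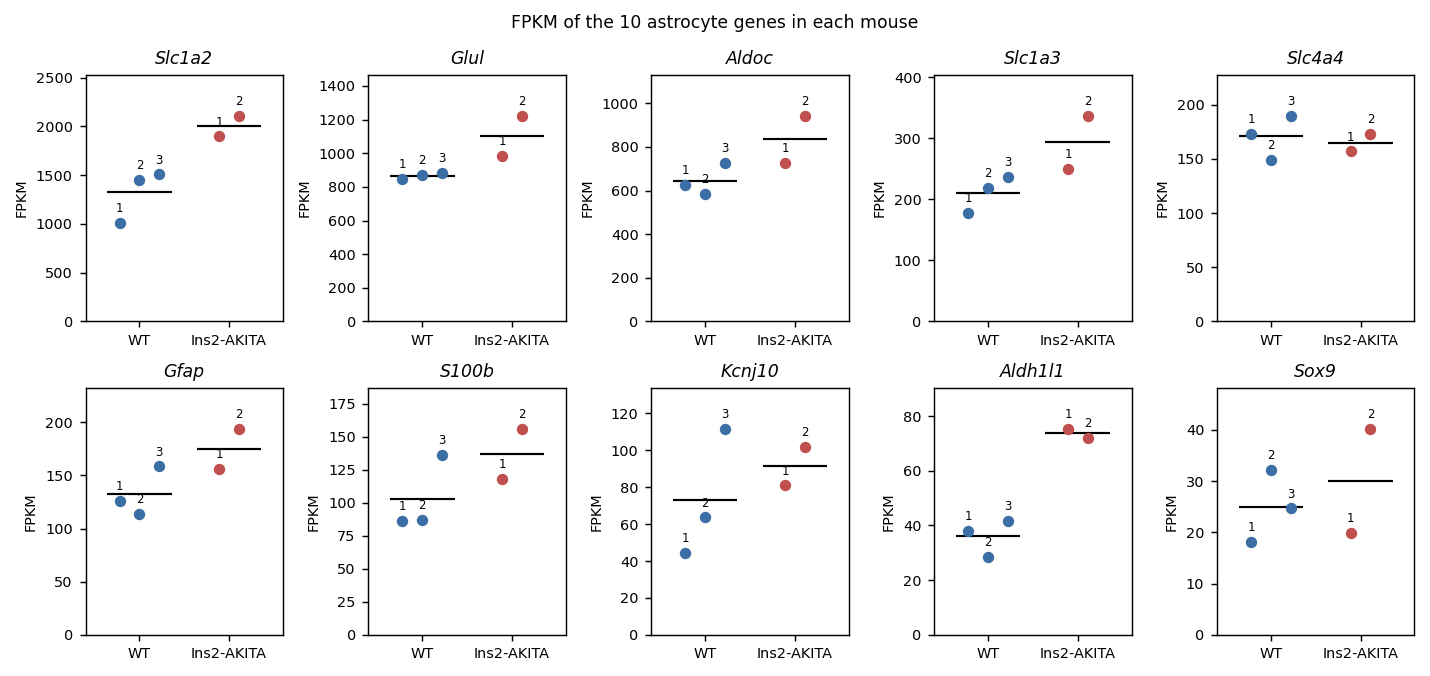
FPKM (vertical axes, each from 0) of the 10 astrocyte genes in 3 WT mice (blue) and 2 Ins2-AKITA mice (red), ordered by WT level; the number beside a point is the replicate and the line is the group mean. For *Slc1a2*, *Slc1a3*, *Glul*, *Aldoc* and *Aldh1l1* both red points lie above all blue ones, for *Aldoc* by a hair.

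None of the 10 genes passed an adjusted p of 0.05 (limma on log2(FPKM + 1), Benjamini-Hochberg over all 16286 symbols), and 1 of them, *Aldh1l1*, had an unadjusted p under 0.05. Across all symbols tested, 4 passed the adjusted threshold (0.0246%), 0 of them higher and 4 lower in Ins2-AKITA mice; with every mouse rescaled to the same FPKM sum (TPM) it was 58 higher and 30 lower, again with none of the 10 astrocyte genes. At an unadjusted p under 0.05, 1.53% of all symbols were higher and 2.93% lower. The log2 fold change of FPKM + 1 was above 0 for 9 of the 10 genes and ranged from -0.04 for *Slc4a4* to 1.03 for *Aldh1l1*. Its median was 0.41, against -0.035 over all symbols, of which 46.5% were above 0. Under TPM the median was 2.06, which is 0.99 above that of all symbols. For 5 of the 10 genes both Ins2-AKITA mice exceeded every WT mouse, and for 0 both lay below. Over all symbols these shares were 9.24% and 10.3%. Each library is 1 mouse, so p-values measure the spread between mice. With 3 mice against 2, the exact permutation test cannot give a p below 0.1. Without WT replicate 3, the limma p before adjustment was under 0.05 for 4 of the 10 genes (*Gfap*, *Aldh1l1*, *Kcnj10* and *S100b*), all higher in Ins2-AKITA mice. In that fit 3.03% of all symbols were higher at such a p, and 8.61% passed in either direction. None of the 10 genes had an adjusted p under the threshold there. Leaving out Ins2-AKITA replicate 2 brought the median to 0.24, with *Gfap* at 0.25, *Slc1a3* at 0.25, *Glul* at 0.19, *S100b* at 0.23, *Aldoc* at 0.18 and *Kcnj10* at 0.25. *S100b* was at 0.64 without WT replicate 3, and *Aldoc* was at 0.55 without Ins2-AKITA replicate 1.

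**Figure D2:**
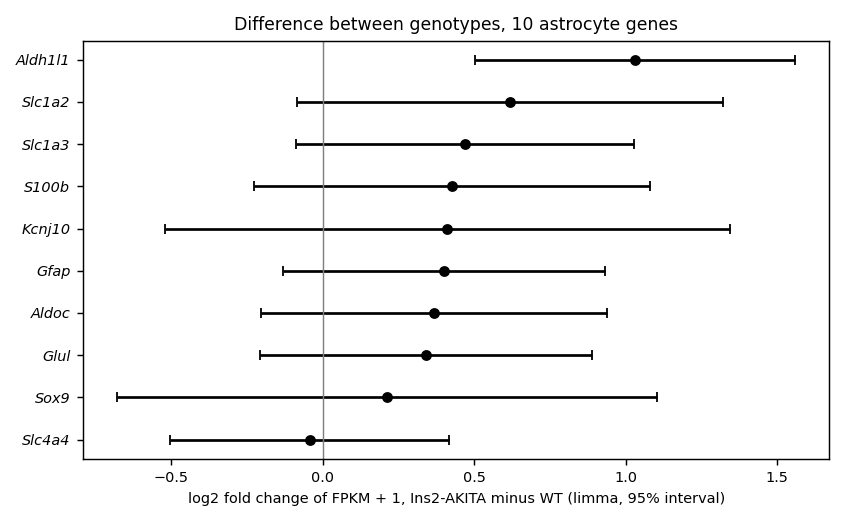
Log2 fold change of FPKM + 1, Ins2-AKITA minus WT, of each of the 10 astrocyte genes (horizontal axis), with the 95% interval from limma. The interval lies above 0 for *Aldh1l1*, from 0.50 to 1.56, and spans 0 for the other 9.

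*Slc1a2*, the main glutamate transporter of the adult forebrain, is annotated in NCBIM37 on chromosome 2 (plus strand, 102498816 to 102630941). It had 1013, 1449 and 1507 FPKM for WT replicates 1 to 3, beside 1897 and 2110 FPKM with Ins2-AKITA. The groups did not overlap, and the gap between WT replicate 1 and the other WT mice was wider than the gap between WT replicate 3 and Ins2-AKITA replicate 1. The ratio of the mean FPKM was 1.51, and the log2 fold change was 0.62 (standard error (SE) of 0.29, 95% interval -0.08 to 1.32, limma adjusted p = 0.90, exact two-sided permutation p = 0.1). *Slc1a2* shares 189 exon bases with *Gm13872* on the opposite strand, whose values, 3.27 to 14.1 FPKM, were far lower. *Slc1a3*, the second astrocyte glutamate transporter (minus strand of chromosome 15, 8584124 to 8660764), had 177, 219 and 237 FPKM among the WT mice, compared to 250 and 337 FPKM among the Ins2-AKITA mice. It too separated the groups, with Ins2-AKITA replicate 1 closer to WT replicate 3 than to its own group mate. Its log2 fold change was 0.47 (SE of 0.23, 95% interval -0.09 to 1.03, limma adjusted p = 0.90, exact permutation p = 0.1).

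*Glul* (plus strand of chromosome 1, 155747074 to 155756853) makes glutamine from the glutamate and ammonia that astrocytes take up. Its WT values were the tightest of the 10 genes, with 845, 873 and 884 FPKM, and both Ins2-AKITA values, 986 and 1223 FPKM, were higher. The log2 fold change was 0.34 (SE of 0.23, 95% interval -0.21 to 0.89, limma adjusted p = 0.90, exact permutation p = 0.1). *Glul* shares 67 exon bases with *5830403L16Rik* on the opposite strand, which had at most 2.79 FPKM in any mouse. Of 14 other glutamate and glutamine genes, 6 were above and 8 below 0, their median log2 fold change was -0.016 (0.010 with median-ratio scaling, and under TPM 0.25 above that of all symbols), and 0 passed the adjusted threshold or an unadjusted p under 0.05 in limma. They ranged from -0.56 for *Slc1a5*, a neutral amino acid exchanger with FPKM values of 4.201, 9.198 and 1.496 (WT) and of 2.203 and 2.74 (Ins2-AKITA), to 0.54 for *Slc7a11*, the cystine-glutamate exchanger, with 6.75, 9.51 and 14.7 FPKM for WT replicates 1 to 3, beside 14.4 and 15.1 FPKM with Ins2-AKITA. For both genes the groups overlapped. The mitochondrial glutamate dehydrogenase gene *Glud1* was the single gene of this list with both Ins2-AKITA values, 310 and 372 FPKM, above all WT values, 235, 221 and 294 FPKM (log2 fold change 0.45, limma adjusted p = 0.90); it was picked out after its values had been seen.

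*Kcnj10* (plus strand of chromosome 1, 174271341 to 174304216), the potassium channel of the end-feet, had 44.4, 63.6 and 112 FPKM among the WT mice, compared to 81.0 and 102 FPKM among the Ins2-AKITA mice. Its highest value was in WT replicate 3 and both Ins2-AKITA values lay inside the WT range. The log2 fold change was 0.41 (SE of 0.39, 95% interval -0.52 to 1.34, limma adjusted p = 0.90, exact permutation p = 0.5), 0.11 without WT replicate 1 and 0.76 without WT replicate 3. *Slc4a4* (plus strand of chromosome 5, 89315843 to 89668678), the sodium-bicarbonate cotransporter NBCe1, had FPKM values of 173, 149 and 190 (WT) and of 157 and 173 (Ins2-AKITA). It was the 1 gene of the 10 whose difference was below 0, at -0.04 on the log2 scale (SE of 0.19, 95% interval -0.51 to 0.42, limma adjusted p = 0.98, exact permutation p = 0.8), and it became 0.036 without WT replicate 3, 0.025 without Ins2-AKITA replicate 1 and 1.63 under TPM, where the median of all symbols was 1.07. Its SE was the smallest of the 10 genes, and both Ins2-AKITA values lay within the WT range.

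Of 17 other genes of potassium, sodium and bicarbonate handling, 5 were above and 12 below 0 with a median of -0.07 (-0.24 without WT replicate 3, -0.27 without Ins2-AKITA replicate 1, -0.036 without Ins2-AKITA replicate 2, and under TPM 0.40 above that of all symbols), and none passed the adjusted threshold in limma. At an unadjusted p under 0.05 there was 0 higher and 1 lower, *Car14*. The highest was *Kcnj16*, which encodes Kir5.1, a partner subunit of Kir4.1. It had 11.7, 21.95 and 32.3 FPKM for WT replicates 1 to 3, beside 30.1 and 36.6 FPKM with Ins2-AKITA, and like *Kcnj10* it was lowest in WT replicate 1 and overlapped between the groups (log2 fold change 0.68, SE of 0.41, limma adjusted p = 0.90). The lowest was *Kcnj8*, a pericyte potassium channel gene that is also among the pericyte markers, at -0.79 (SE of 0.53), with 9.17, 4.63 and 2.33 FPKM among the WT mice, compared to 2.71 and 1.98 FPKM among the Ins2-AKITA mice.

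*Gfap* (ENSMUSG00000020932, minus strand of chromosome 11, 102748650 to 102762226) had FPKM values of 126, 114 and 159 (WT) and of 156 and 194 (Ins2-AKITA). Ins2-AKITA replicate 1 was just below WT replicate 3, so the groups overlapped. The means were 133 ± 23.0 FPKM (SD, n = 3) and 175 ± 26.5 FPKM (SD, n = 2). The log2 fold change was 0.40 (SE of 0.22, 95% interval -0.13 to 0.93, limma adjusted p = 0.90, exact two-sided permutation p = 0.3). The interval holds 0, and it also holds differences close to 1 on the log2 scale, so that equal levels were not shown either. *Gapdh* is a common reference gene for quantitative PCR, and the ratio to it removes library scaling. *Gfap* over *Gapdh* was 0.404, 0.443 and 0.447 among WT and 0.580 and 0.514 among Ins2-AKITA mice. This ratio separated the groups, with a log2 difference of 0.34 and an exact permutation p of 0.1, the smallest the design allows. *Gapdh* itself had 312, 258 and 355 FPKM for WT replicates 1 to 3, beside 270 and 377 FPKM with Ins2-AKITA. With *Hprt* as the reference the ratio was 6.25, 4.46 and 8.42 among WT and 9.37 and 7.78 among Ins2-AKITA mice, which overlapped (log2 difference 0.47, exact permutation p = 0.3).

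*S100b* (plus strand of chromosome 10, 75716598 to 75723904) encodes a calcium-binding protein of astrocytes that some oligodendrocyte lineage cells make as well. It had 86.5, 87.2 and 136 FPKM among the WT mice, compared to 118 and 156 FPKM among the Ins2-AKITA mice. WT replicate 3 lay between the Ins2-AKITA mice, and the log2 fold change was 0.43 (SE of 0.27, 95% interval -0.23 to 1.08, limma adjusted p = 0.90, exact permutation p = 0.3). *Dip2a* lies across *S100b* on the other strand and shares 0 exon bases with it. *Aldoc* (plus strand of chromosome 11, 78136470 to 78141283), the aldolase isoform of astrocytes, had FPKM values of 625, 585 and 729 (WT) and of 729 and 944 (Ins2-AKITA). Its groups are counted as separate although WT replicate 3, at 728.7 FPKM, and Ins2-AKITA replicate 1, at 728.8 FPKM, were all but equal. Its log2 fold change was 0.37 (SE of 0.24, 95% interval -0.21 to 0.94, limma adjusted p = 0.90, exact permutation p = 0.2). *Sox9* (plus strand of chromosome 11, 112643538 to 112649074), a transcription factor that specifies and marks astroglia, varied most between the Ins2-AKITA mice, with 20.0 and 40.2 FPKM against 18.2, 32.1 and 24.7 in WT. Its log2 fold change was 0.21 (SE of 0.37, 95% interval -0.68 to 1.10, limma adjusted p = 0.94, exact permutation p = 0.6). It was 0.011 without WT replicate 1, 0.40 without WT replicate 2, 0.70 without Ins2-AKITA replicate 1 and -0.28 without Ins2-AKITA replicate 2.

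*Aldh1l1* (ENSMUSG00000030088, plus strand of chromosome 6, 90436421 to 90550197) encodes a cytosolic folate enzyme, 10-formyltetrahydrofolate dehydrogenase, and marks astrocytes more evenly across the brain than *Gfap* does. It had 37.9, 28.5 and 41.6 FPKM for WT replicates 1 to 3, beside 75.3 and 72.1 FPKM with Ins2-AKITA. The Ins2-AKITA mice were close to each other and well above every WT mouse. The means were 35.98 ± 6.73 FPKM (SD, n = 3) and 73.7 ± 2.30 FPKM (SD, n = 2), a ratio of 2.05. Its log2 fold change of 1.03 (SE of 0.22, 95% interval 0.50 to 1.56) had the smallest p of the 10 genes, and at 0.0029 before adjustment it ranked 57 among the 16286 symbols in limma. The adjusted p was 0.80 in limma, and the exact permutation p was 0.1, the smallest possible. Its direction was the same under every alternative that was run. The log2 fold change lay between 0.88 and 1.14 apart from TPM (2.49, where the median of all symbols was 1.07). In the fits that kept both Ins2-AKITA mice, its limma adjusted p did not fall below 0.27. Its estimated fragments were 189, 162 and 507 among WT and 364 and 398 among Ins2-AKITA mice. *Aldh1l1* shares 499 exon bases with *Gm15756* on the opposite strand, which is listed at 0 in all 5 mice.

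Within a mouse, a ratio of 2 genes does not depend on how the library was scaled. *Aldh1l1* amounted to 30.1%, 25.0% and 26.2% of the *Gfap* FPKM for the WT mice, and to 48.2% and 37.2% with Ins2-AKITA, so that the groups did not overlap. Relative to the connexin gene *Gja1* it was 33.5%, 25.3% and 21.99% among WT and 42.9% and 34.1% among Ins2-AKITA mice, where Ins2-AKITA replicate 2 exceeded WT replicate 1 by little. Relative to the summed FPKM of the other 9 genes it was 1.22%, 0.798% and 1.05% among WT and 1.71% and 1.37% among Ins2-AKITA mice. These ratios were taken after the *Aldh1l1* values had been seen and are given without a test.

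**Figure D3:**
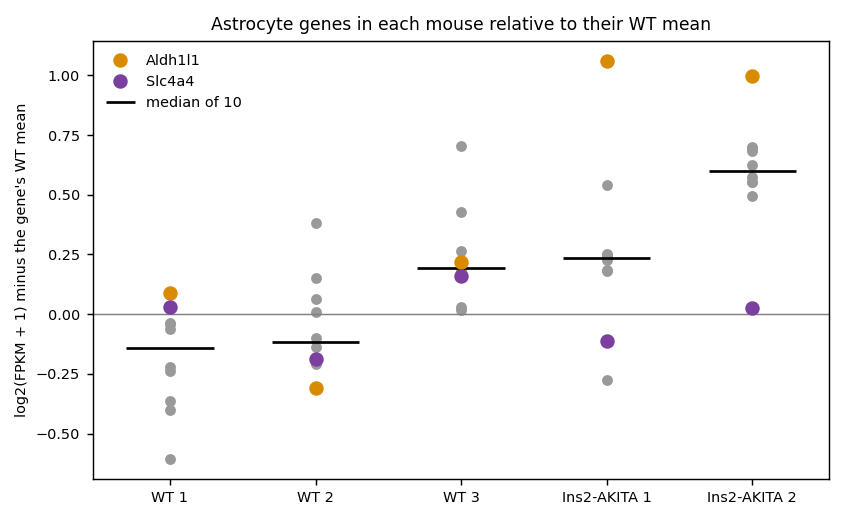
Log2(FPKM + 1) of each of the 10 astrocyte genes minus the mean of that gene in WT mice (vertical axis), by mouse; the bar is the median of the 10 genes, *Aldh1l1* is orange and *Slc4a4* purple. The medians are -0.14, -0.12 and 0.19 for WT and 0.24 and 0.60 for Ins2-AKITA mice, and *Aldh1l1* stands above all others in both Ins2-AKITA mice.

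Across mice, the 10 genes shared much of their order. Ins2-AKITA replicate 2 was the highest of the 5 mice for 7 of them, and it was above Ins2-AKITA replicate 1 for 9. WT replicate 3 was the highest WT mouse for 9 genes, and the lowest value of each gene was in WT replicate 1 (6 genes) or WT replicate 2 (4 genes). Relative to each gene's WT mean, the median of the 10 genes on the log2 scale was 0.19 in WT replicate 3 and 0.24 in Ins2-AKITA replicate 1, a smaller step than that to 0.60 in Ins2-AKITA replicate 2. The FPKM of all symbols summed to 13030000, 12230000 and 3540000 for WT replicates 1 to 3 and to 4020000 and 1530000 for Ins2-AKITA replicates 1 and 2, so that the mice with low sums were those with high medians of the 10 genes. With median-ratio scaling the median log2 fold change of the 10 genes was 0.432, and after quantile normalization 0.405, beside 0.405 in the main fit. Beyond these 2 rescalings and TPM, the part of the FPKM sums in the order of the mice and in the genotype difference was not tested. Among 11253 other genes with a mean of at least 5 FPKM, those whose centred log2 profile over the 5 mice lay nearest to that of *Gfap*, by the root mean square difference, were *Acsl3* (0.026), *Hrsp12* (0.029), *Eif1b* (0.029), *Creg2* (0.035) and *Glud1* (0.036). *Acsl3*, which encodes a long-chain acyl-CoA synthetase, had 89.2, 81.0 and 113 FPKM among the WT mice, compared to 116 and 140 FPKM among the Ins2-AKITA mice. Nearest to the mean profile of the 10 genes were *5730455P16Rik* (0.026), *Epm2aip1* (0.027), *Lamp1* (0.029), *Gabarapl1* (0.030) and *Daam2* (0.032). *Lamp1*, a lysosomal membrane protein gene of most cell types, had FPKM values of 90.3, 101 and 124 (WT) and of 119 and 152 (Ins2-AKITA). With 5 mice, closeness of this kind is a description of these libraries.

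The 20 further astrocyte-enriched genes were all above 0, with a median log2 fold change of 0.35, and 0 of them passed the adjusted threshold or an unadjusted p under 0.05 in limma. *Aqp4* was the highest, at 0.61 (SE of 0.38, limma adjusted p = 0.90), with 26.4, 34.2 and 65.4 FPKM for WT replicates 1 to 3, beside 55.6 and 65.0 FPKM with Ins2-AKITA. *Ntsr2*, a neurotensin receptor gene of astrocytes, was the lowest at 0.11 (SE of 0.22), with 56.4, 47.0 and 69.9 FPKM among the WT mice, compared to 61.1 and 61.9 FPKM among the Ins2-AKITA mice. *Gja1* had FPKM values of 113, 113 and 189 (WT) and of 176 and 212 (Ins2-AKITA) (log2 fold change 0.52, SE of 0.28). For these 3 genes WT replicate 3 reached into or above the Ins2-AKITA values. Both Ins2-AKITA mice were above all WT mice for 2 of the 20, *Slc39a12* and *Slc25a18*, against 9.24% of all symbols. Their median was 0.17 without WT replicate 1, 0.58 without WT replicate 3 and 0.23 without Ins2-AKITA replicate 2.

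Genes tied to reactive astrocytes, listed without *Gfap* (log2 fold change 0.40), had mostly lower values in Ins2-AKITA mice. Under TPM they were lower only relative to all symbols, and 0 of them passed the adjusted threshold. Which cells their RNA came from was not tested, and the endothelial markers had a similar median, -0.44. Of the 20 reactive genes listed, 18 passed the filter, and 1 was above and 17 below 0. Their median log2 fold change was -0.42 (-0.39 with median-ratio scaling, -0.38 after quantile normalization, and 0.77 under TPM beside 1.07 over all symbols). At an unadjusted p under 0.05 in limma, 2 were lower and 0 higher. Both Ins2-AKITA mice lay below all WT mice for 8 of the 18, against 10.3% of all symbols, and above all of them for 1, *C3*, against 9.24%. *Srgn*, a proteoglycan gene that endothelial and blood-derived cells also express, had 44.2, 23.7 and 29.5 FPKM for WT replicates 1 to 3, beside 12.5 and 12.1 FPKM with Ins2-AKITA (log2 fold change -1.29, SE of 0.29, limma adjusted p = 0.85, exact permutation p = 0.1). *Hspb1*, a small heat shock protein gene, had 39.4, 26.6 and 57.5 FPKM among the WT mice, compared to 23.1 and 12.6 FPKM among the Ins2-AKITA mice (log2 fold change -1.15, SE of 0.39, limma adjusted p = 0.90). *Vim*, whose intermediate filament protein is shared by astrocytes and vessel cells, had FPKM values of 119, 150 and 126 (WT) and of 115 and 94.7 (Ins2-AKITA). These 3 were picked out after their values had been seen. The lowest of the list, *Lcn2*, was high in WT replicate 1 alone: 41.0 FPKM, beside 2.71 and 1.72 FPKM for WT replicates 2 and 3, 0 for Ins2-AKITA replicate 1 and 1.13 for replicate 2, where an estimated 3 fragments were behind the value. The highest, the complement gene *C3*, was at 1.18 (SE of 0.52, limma adjusted p = 0.90). Its levels of 0.523, 0.154 and 0.993 FPKM for WT replicates 1 to 3, beside 2.61 and 2.27 FPKM with Ins2-AKITA, rested on an estimated 3, 1 and 14 fragments and on 14 and 14. *Stat3*, whose protein binds motifs of the kind marked in the *Gfap* promoter, had 62.7, 38.9 and 24.3 FPKM for WT replicates 1 to 3, beside 30.0 and 39.5 FPKM with Ins2-AKITA, and its groups overlapped.

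Of 18 transcription regulators of the astroglial lineage, 12 were above and 6 below 0, with a median of 0.14 (0.086 without WT replicate 2, 0.21 without WT replicate 3, 0.43 without Ins2-AKITA replicate 1 and 0.025 without Ins2-AKITA replicate 2). In limma 0 passed the adjusted threshold, and 1 was higher (*Id4*) and 1 lower (*Sox10*) at an unadjusted p under 0.05. *Sox10*, a factor of oligodendrocytes, was the lowest at -0.64 (SE of 0.26), with 14.1, 16.7 and 11.8 FPKM among the WT mice, compared to 7.67 and 9.76 FPKM among the Ins2-AKITA mice, so that the groups did not overlap. The highest, *Hes5*, a Notch target, was at 1.08 (SE of 0.72), with 2.45 FPKM in WT replicate 1, from an estimated 3 fragments, and 16.6 and 13.97 FPKM in WT replicates 2 and 3, beside 24.3 and 15.6 FPKM with the mutation.

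**Figure D4:**
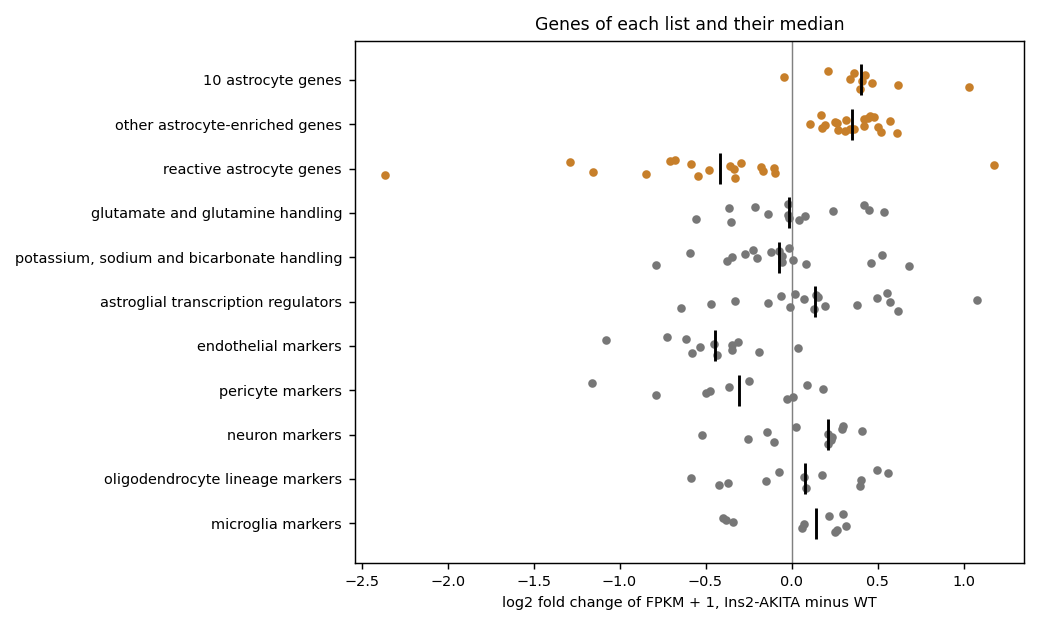
Log2 fold change of FPKM + 1, Ins2-AKITA minus WT (horizontal axis), of each tested gene of 11 lists, with a black bar at the median of a list. The medians of the 10 astrocyte genes (0.41) and the further astrocyte-enriched genes (0.35) lie to the right of 0, and those of the reactive astrocyte genes (-0.42) and the endothelial markers (-0.44) to the left, although *Slc4a4*, *C3* and *Kdr* lie on the other side of 0 from their list's median.

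The summed astrocyte signal relative to the endothelial signal varied between the preparations. Summed FPKM of the 10 genes was 3146, 3601 and 4019 among WT and 4469 and 5351 among Ins2-AKITA mice. Summed FPKM of the 12 endothelial markers was 625, 819 and 484 among WT and 491 and 392 among Ins2-AKITA mice. The astrocyte sum was thus 5.04, 4.40 and 8.31 times the endothelial sum among WT and 9.10 and 13.6 times among Ins2-AKITA mice (log2 difference 0.97). In this ratio WT replicate 3 resembled Ins2-AKITA replicate 1 more than its own group. The rise was shared by the neuron markers, whose sum was 2.91, 2.11 and 3.90 times the endothelial sum among WT and 3.78 and 5.82 times among Ins2-AKITA mice (log2 difference 0.70). There the groups overlapped. Of the 12 endothelial markers, 11 were below 0, with a median log2 fold change of -0.44 (-0.42 with median-ratio scaling and -0.46 after quantile normalization, but 1.13 under TPM, above the 1.07 over all symbols). The endothelial median was -0.27 without WT replicate 2, -0.67 without WT replicate 3 and -0.28 without Ins2-AKITA replicate 2. In limma 0 of these markers passed the adjusted threshold, and 3 were lower and 0 higher at an unadjusted p under 0.05. They ranged from -1.08 for *Ly6c1* to 0.04 for *Kdr*. *Pecam1*, the target of the capture beads, had FPKM values of 92.8, 91.0 and 65.8 (WT) and of 63.1 and 58.3 (Ins2-AKITA). The part that the composition of the fragments had in the differences of the astrocyte genes was not tested.

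Among the other cells, the 12 neuron markers showed a median difference of 0.21 on the log2 scale, 8 being above and 4 below 0, from -0.52 for *Nefm* to 0.41 for *Gad2*. The neuron median was 0.37 without Ins2-AKITA replicate 1 and -0.042 without Ins2-AKITA replicate 2. The astrocyte sum was 1.73, 2.09 and 2.13 times the neuron sum among WT and 2.41 and 2.34 times among Ins2-AKITA mice, which did not overlap. The pericyte markers had a median of -0.31 (0.97 under TPM, which is -0.098 relative to all symbols), with genes from -1.16 for *Ndufa4l2* to 0.18 for *Anpep*. The pericyte median was -0.54 without Ins2-AKITA replicate 1 and -0.032 without Ins2-AKITA replicate 2. The oligodendrocyte lineage markers had a median of 0.08, which was -0.013 without WT replicate 1, 0.040 without WT replicate 2, 0.17 without WT replicate 3 and 0.19 without Ins2-AKITA replicate 1 (from -0.58 for *Mal* to 0.56 for *Cspg5*). The microglia markers had a median of 0.14, which was -0.29 without WT replicate 1, 0.33 without WT replicate 2 and 0.32 without WT replicate 3 (from -0.40 for *C1qc* to 0.32 for *Tmem119*). Of the 6 blood markers 4 passed the filter, all below 0 with a median of -0.79, or -0.41 without Ins2-AKITA replicate 2 (0.37 under TPM, still below the 1.07 of all symbols; from -1.09 for *Alas2* to -0.34 for *Ptprc*). In limma 0 of these genes passed the adjusted threshold, and at an unadjusted p under 0.05 there were 0 higher and 1 lower, a pericyte marker. Against the summed further astrocyte-enriched genes, the sum of the 10 genes was 2.43, 2.68 and 2.01 among WT and 2.50 and 2.59 among Ins2-AKITA mice. The sums thus kept a similar proportion in both genotypes, within the spread of the WT mice. In WT means, *Slc1a2*, *Glul* and *Aldoc* gave 1323, 867 and 646 of the 3589 FPKM of the 10 genes, so the sum says little about the lower genes. *Camk2a* gave 886 of the 1810 FPKM of the neuron sum.

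**Figure D5:**
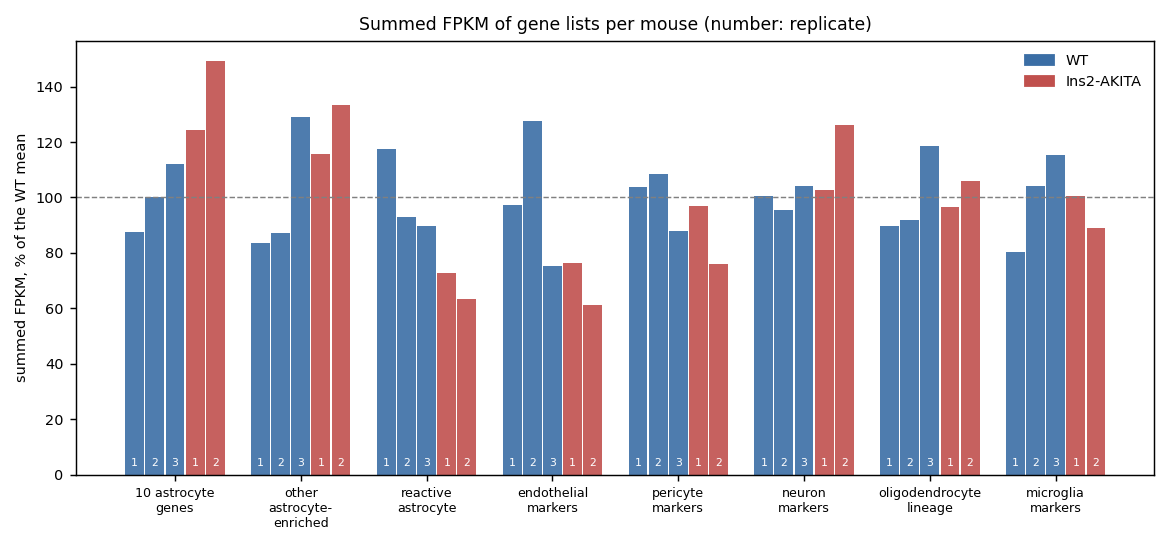
Summed FPKM of 8 gene lists in each mouse as a percentage of the WT mean of that list (bars from 0; the number in a bar is the replicate, the dashed line is the WT mean). The 10 astrocyte genes reach 124.5% and 149.1% in the Ins2-AKITA mice, and the endothelial markers 76.5% and 61.1%, while WT replicate 3 has 112.0% and 75.3%.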

How the data were processed

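The authors depleted ribosomal RNA, made stranded total RNA libraries, mapped reads to NCBIM37 with TopHat2 2.0.4, removed duplicates with Picard 1.92 and tested with Cufflinks 2.2.1; the authors deposited FPKM values, 1 file per mouse. The program behind single-mouse values, and whether counting used strand, are not given in the sources used here. Duplicate removal can lower the values of abundant genes.

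Of 37982 identifiers, 37197 matched GENCODE vM1 (NCBIM37), and rows sharing a symbol were summed. Symbols with a mean of at least 1 FPKM were tested on log2(FPKM + 1) in limma 3.58.1 (R 4.3.3; lmFit, eBayes with trend, genotype the only factor, two-sided, Benjamini-Hochberg at 0.05), which understates changes of low genes. Fold changes are Ins2-AKITA minus WT. Exact permutation tests used all 10 choices of 2 of the 5 mice. The fit was tested on simulated data. The planted changes were larger than those of the 10 genes in the main fit, and errors were independent between genes. That test does not show how the fit fares with changes of the size seen here. Fragments were estimated from the FPKM steps of genes with 1 transcript: 97.54% to 98.05% of low values lay within 0.05 of a whole multiple after 225 or 230 bases were subtracted from the exon length. Such estimates bear on counting error only, and they rest on the fitted fragment total and the subtracted length. For genes with several transcripts they assume all exons. Python 3.11.15 was used for all else.

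The 10 genes, the lists and the tests were chosen with earlier results of these data known. Named were the 10 genes, the extremes of each list, *Aqp4*, *Gja1*, *Gapdh*, *Pecam1*, the genes nearest in profile, *Hprt*, *Stat3*, the genes behind counts of 5 or fewer and those said to be picked afterwards, the last 2 kinds after their values were seen. Replicate numbers of the labels name mice without stating a shared litter, so they were not used as a block. Alternative fits changed the pseudocount (0.1), the filter (none for genes above 0 in a mouse, or at least 5 FPKM), the scaling (TPM, median ratios or quantiles), the prior variance (constant), the gene set (protein-coding), added the replicate block, or left out 1 mouse. Leaving out an Ins2-AKITA mouse leaves 1, which is assumed to vary like the WT mice. The quantitative PCR and imaging data were not analysed here.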

Additional observations from a re-analysis of the deposited data

How the results depend on the processing

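Of 140 results for the 10 genes under 14 alternatives of the fit, 135 kept their direction and their side of the threshold, and 5 changed direction. *Slc4a4* (-0.04) became 1.63 with TPM, 0.036 with the replicate block, 0.036 without WT replicate 3 and 0.025 without Ins2-AKITA replicate 1, and *Sox9* (0.21) became -0.28 without Ins2-AKITA replicate 2. With 1 mouse left out *Slc4a4* lay between -0.138 and 0.036 and *Sox9* between -0.275 and 0.699. The cause was not tested. In the alternatives that kept both mutant animals, none of the 10 genes passed an adjusted p of 0.05 in limma. Before adjustment, between 1 and 4 of the genes had a limma p under 0.05. The replicate block gave 3 (*Aldh1l1*, *Kcnj10*, *S100b*), and leaving out WT replicate 3 gave 4. The share of all symbols with such a p was 7.67% and 8.61% in these fits, against 4.46% in the main fit. The rise was thus not confined to the 10 genes. With TPM the share was 11.7%, and 1 of the 10 genes had such a p. The median of the 10 genes was 2.06 with TPM, 0.432 with median-ratio scaling and 0.405 after quantile normalization. It lay between 0.24 and 0.60 with 1 mouse left out. TPM moved the median of all symbols from -0.035 to 1.07. *Gfap* over *Gapdh* stayed above 0 under every alternative run for it.

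The number of genes called lower (4) was 2 with no filter, with the minimum of 5 FPKM or with a constant prior variance, 1 for protein-coding genes and 30 with TPM. The number called higher (0) was 58 with TPM and 1 with a constant prior variance. With 1 mouse left out the number higher lay between 0 and 10 and the number lower between 1 and 6. In the fit with the replicate block WT replicate 3 has no partner, and the fold changes then equal those without that mouse. Deviations of the 2 Ins2-AKITA mice are exact opposites, so a shared origin of equal numbers could not be checked. With 3 and 2 mice the intervals of 9 of the 10 genes span 0. About 1127000 to 2846000 fragments per mouse limit what can be seen in low genes such as *Sox9*.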
